A study of Mus musculus with 127 samples.

Results

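Replication-dependent histone genes of the mouse lie in clusters, and the positions of 3 clusters along the cutting axis of single nuclei are described here. The members are 3 regions of the mm10 genome chosen by coordinates alone. They are the large cluster at chr13:21600001-23800000 (220 windows of 10 kb), the cluster at chr3:95700001-96700000 (100 windows) and the small cluster at chr11:58500001-59500000 (100 windows). Located windows of these 3 regions numbered 1884 of the 1222168 listed over all files, with 921 on chr13, 419 on chr3 and 544 on chr11.

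The material was F123, embryonic stem cells of the mouse strain cross CAST x 129, an established line grown with LIF on feeder cells, passaged off the feeders and given no treatment. Each nucleus was cut into a series of slices (nuclear profiles), whose DNA was amplified genome-wide and sequenced. Of 127 samples, 122 were profiles of 10 nuclei, and the 5 controls (1 negative, 4 positive) have no positions and entered no comparison. Title prefixes put Cell17, Cell18, Cell19 and Cell20 in batch B16F and Cell25, Cell26, Cell27, Cell28, Cell38 and Cell39 in batch B18F; all are the same line in the same labelled state. Each nucleus has 2 files, numbered 0 and 1, that give each located 10 kb window 1 position on the axis, in an unnamed axis unit. The files carry no read counts, so the depth behind a window is unknown and the number of located windows takes its place. That number ran from 56975 in Cell39 to 190076 in Cell25, and the sampled axis spanned 2.2 to 4.4 units in B16F and 1.2 to 2.8 in B18F. Positions of DNA hold no expression values, so the labelled cell type was not checked against marker genes. The labels name no separate cultures, so a p-value here covers only the spread between these 10 nuclei.

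Replication-dependent histone genes encode the core histones H2A, H2B, H3 and H4, which form the nucleosome, and the linker histone H1, which binds the DNA where it enters and leaves the nucleosome. They lack introns, their mRNAs end in a stem-loop in place of a poly(A) tail, and they are transcribed in step with DNA replication. Their transcription and mRNA 3' end processing take place in a nuclear compartment, the histone locus body, which forms at the histone genes.

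The RefSeq gene table of GRCm38.p6 placed 68 histone genes in the 3 regions, 3 of them pseudogenes. Each gene was assigned to the window of its midpoint alone. Other windows that a longer gene such as H2bc6 crosses were thus counted as windows without a histone gene. On chr13 the histone genes fall into 2 parts separated by 1.49 Mb without a histone gene. Part A (45 windows) starts at chr13:21600001 and holds 24 genes in 11 windows, of which 1 is H1, 8 are H2A, 8 H2B, 2 H3 and 5 H4. Part B (27 windows) ends at chr13:23800000 and holds 30 genes in 14 windows, with 5 H1, 6 H2A, 6 H2B, 7 H3 and 6 H4 genes. The chr3 region holds 10 histone genes in 4 windows (4 H2A, 2 H2B, 3 H3, 1 H4), and the chr11 region 4 in 3 windows (1 H2A, 2 H2B, 1 H3). The neighbours differ between the stretches. The 148 windows between the chr13 parts hold 75 Vmn1r genes, which encode vomeronasal pheromone receptors and of which 36 are protein-coding, and 45 tRNA genes. Part A also holds 33 tRNA and 5 olfactory receptor genes, the chr3 region 25 tRNA genes, and the chr11 region 20 olfactory receptor genes and 3 Trim genes.

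The promoters of the classes differed in sequence. RefSeq promoters were found for 60 of the 68 genes, giving 61 promoters, and the 250 bases before each start were searched on both strands for CCAAT, for TATAAA and for the octamer ATTTGCAT; none of the 3 motifs contains another. CCAAT was present in 51 of 61 histone promoters (83.6%), against 33.8% of all 32851 RefSeq promoters. It was present in all 6 H1, 17 H2A and 16 H2B promoters, in 9 of 11 H3 promoters, and in 3 of 11 H4 promoters (27.3%). TATAAA was present in 44.3% of the histone promoters and in 12.4% of all promoters; by class it was in 4 of 6 H1, 6 of 17 H2A, 7 of 16 H2B, 4 of 11 H3 and 6 of 11 H4 promoters. The octamer was present in 12 histone promoters (19.7%), 6 of H2A and 6 of H2B genes, and in 1.6% of all promoters. Neighbouring H2A and H2B genes are often transcribed away from each other from 1 shared stretch, so their promoters are not independent. Below, 5 of them are given from RefSeq (GRCm38.p6), 5' to 3' on the strand of the gene, with CCAAT and TATAAA of either strand in capitals. They show the contrast in CCAAT between H4 and H2B genes in parts A and B, and the first gene of the chr11 region; the H2B promoters were added after the motifs had been counted. The promoters of H4c14 and H2bc21 on chr3 are not printed.
H4c11 (part A, chr13:21734784-21735033, plus strand): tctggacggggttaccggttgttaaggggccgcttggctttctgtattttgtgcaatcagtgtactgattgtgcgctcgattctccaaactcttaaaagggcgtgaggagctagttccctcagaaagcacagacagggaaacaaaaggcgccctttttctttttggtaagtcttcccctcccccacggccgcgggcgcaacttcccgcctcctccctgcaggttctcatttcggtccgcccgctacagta
H2bc13 (part A, chr13:21716184-21716433, minus strand): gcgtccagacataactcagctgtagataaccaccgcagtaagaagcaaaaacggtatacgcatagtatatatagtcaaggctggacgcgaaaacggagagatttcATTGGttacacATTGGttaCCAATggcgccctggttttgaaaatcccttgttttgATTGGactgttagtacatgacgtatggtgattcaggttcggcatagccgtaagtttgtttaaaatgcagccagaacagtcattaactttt
H4c8 (part B, chr13:23530794-23531043, plus strand): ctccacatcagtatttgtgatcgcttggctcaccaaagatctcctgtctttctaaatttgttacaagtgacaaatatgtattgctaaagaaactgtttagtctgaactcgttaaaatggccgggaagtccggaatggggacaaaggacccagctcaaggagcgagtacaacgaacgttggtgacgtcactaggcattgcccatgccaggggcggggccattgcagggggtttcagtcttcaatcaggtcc
H2bc9 (part B, chr13:23543445-23543694, minus strand): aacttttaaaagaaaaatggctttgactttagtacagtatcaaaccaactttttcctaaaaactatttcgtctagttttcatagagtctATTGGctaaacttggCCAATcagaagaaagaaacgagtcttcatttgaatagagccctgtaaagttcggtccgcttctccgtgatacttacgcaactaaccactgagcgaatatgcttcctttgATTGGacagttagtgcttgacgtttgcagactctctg
H2bu2 (chr11 region, chr11:58948661-58948910, plus strand): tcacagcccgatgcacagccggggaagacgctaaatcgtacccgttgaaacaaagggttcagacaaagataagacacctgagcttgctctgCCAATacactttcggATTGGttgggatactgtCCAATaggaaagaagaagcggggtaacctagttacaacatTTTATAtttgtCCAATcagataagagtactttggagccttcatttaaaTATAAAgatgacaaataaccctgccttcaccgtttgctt
The H2bc13 stretch holds 4 copies of CCAAT, that of H2bc9 3, and that of H2bu2 4 together with 2 copies of TATAAA. Neither of these H4 stretches holds one of the 3 motifs, although 6 of the 11 H4 promoters hold TATAAA.

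The histone regions were neither at one end of the axis nor at one shared place in these nuclei. As a percent of the sampled axis, counted from its lowest position, the mean position of the chr13 windows was 42.9% in Cell17, 59.1% in Cell18, 52.8% in Cell19, 38.1% in Cell20, 57.5% in Cell25, 29.2% in Cell26, 59.4% in Cell27, 41.8% in Cell28, 37.4% in Cell38 and 44.2% in Cell39. The chr3 windows averaged 51.7%, 59.1%, 61.2%, 47.8%, 53.2%, 43.8%, 65.9%, 42.1%, 39.5% and 84.2% in the same order of nuclei. The chr11 windows averaged 47.3%, 34.7%, 27.9%, 47.6%, 56.5%, 42.4%, 45.4%, 37.9%, 28.8% and 93.2%. Cell39 stood highest for both smaller regions, where 12 windows of chr3 and 11 of chr11 were located; its chr13 windows lay near the middle. The direction of the axis is not given in the sources used here, so a high or low end has no name. A mean hides a wide scatter, since windows of 1 region lay at several slices: over the chr13 windows the SD was lowest in Cell26 (0.304 axis units) and highest in Cell17 (0.825).

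**Figure D1:**
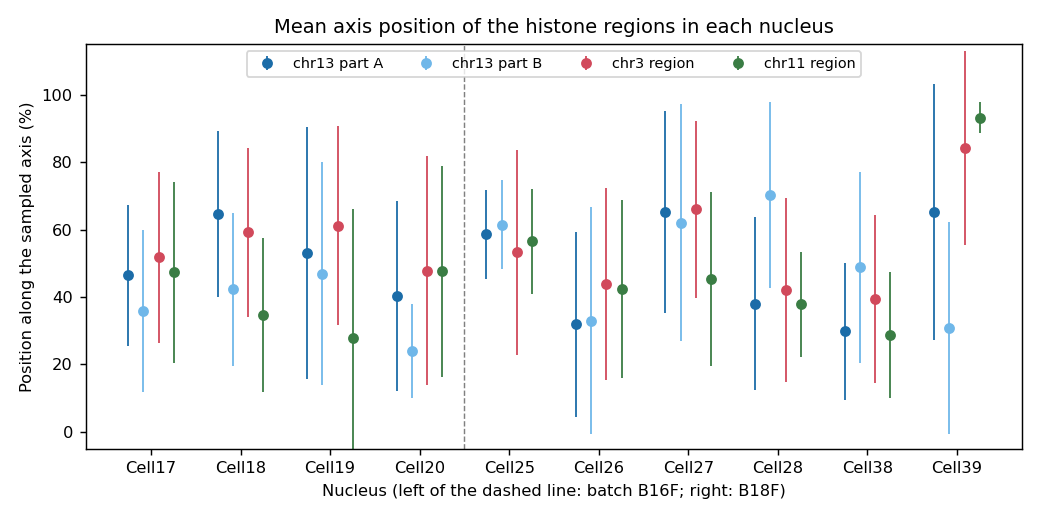
Mean position of the windows of chr13 part A, chr13 part B, the chr3 region and the chr11 region in each nucleus, as a percent of the sampled axis. Points are means over the located windows of both files and bars are the SD over those windows, which are not replicates; the dashed line separates batch B16F from B18F. Cell39 has the highest chr3 (84.2%) and chr11 (93.2%) points.

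Distances were compared with those of ordinary chromosome. The distance between 2 regions is the mean absolute difference in position over all pairs of their windows in a file, averaged over the files. It therefore also counts scatter within each region. To allow for the different axis lengths, each distance was ranked in its own nucleus among all pairs of tiles of the same sizes, 2.2 Mb on chr13 and 1 Mb on chr3 and chr11, laid end to end along these chromosomes. A percentile of 0 means closer than every other pair and 50 the middle. The mean percentile minus 50 was tested with an exact two-sided sign-flip permutation test over the 10 nuclei, which cannot give a p under 0.00195, and the same test was run on every tile or pair to give a background and a Benjamini-Hochberg adjusted p.

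The 3 clusters were not detectably nearer to each other along the axis than other pairs of the same chromosomes. The chr13 to chr3 distance was 1.16 axis units in Cell17, 0.87 in Cell18, 0.82 in Cell19, 0.90 in Cell20, 0.72 in Cell25, 0.43 in Cell26, 0.43 in Cell27, 0.42 in Cell28, 0.52 in Cell38 and 0.99 in Cell39. Ranked among tile pairs, it ran from 10.8 in Cell27 to 97.4 in Cell20, with 5 nuclei above 50 and 5 below. The mean percentile was 51.0 ± 28.7 (SD, n = 10), and the mean minus 50 was 1.0 (exact sign-flip permutation p = 0.912, adjusted p = 0.984), in a background where 8.7% of the 8112 pairs tested had p under 0.05. Relative to the median tile pair of the nucleus the distance was 1.07 ± 0.222 (SD, n = 10).

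The chr13 to chr11 distance was 1.24, 1.10, 0.996 and 0.85 axis units in Cell17, Cell18, Cell19 and Cell20. It was 0.44, 0.35, 0.43, 0.33, 0.48 and 1.002 in Cell25, Cell26, Cell27, Cell28, Cell38 and Cell39. In axis units, Cell39 is thus as far apart as the B16F nuclei, and the other B18F nuclei are all lower than every B16F nucleus. Axis units are not comparable between batches because the sampled axes reach further in B16F. As percentiles, Cell39 was at 92.5, the other B18F nuclei at 28.7 (Cell26) or less, and the B16F nuclei at 85.6 (Cell17) or more. Cell39 had 11 located chr11 windows. The percentile of the chr13 to chr11 distance averaged 54.1 ± 40.6 (SD, n = 10), again with 5 nuclei on each side (exact sign-flip permutation p = 0.746, adjusted p = 0.956). In the background, 7.74% of 6136 pairs had p under 0.05. The SD of 40.6 is the largest among the 3 pairs.

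The chr3 to chr11 distance was 1.37, 1.20, 1.13 and 0.83 axis units in the B16F nuclei in the same order, and 0.81, 0.38, 0.47, 0.34, 0.53 and 0.29 in the B18F nuclei. Its percentile averaged 61.8 ± 30.2 (SD, n = 10), above 50 in 6 nuclei and below it in 4 (exact sign-flip permutation p = 0.252, adjusted p = 0.763; 9.13% of 18408 pairs had p under 0.05). The direction of all 3 mean differences turned in the B18F nuclei taken alone, where they were -4.94, -20.7 and -9.22 percentile points.

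**Figure D2:**
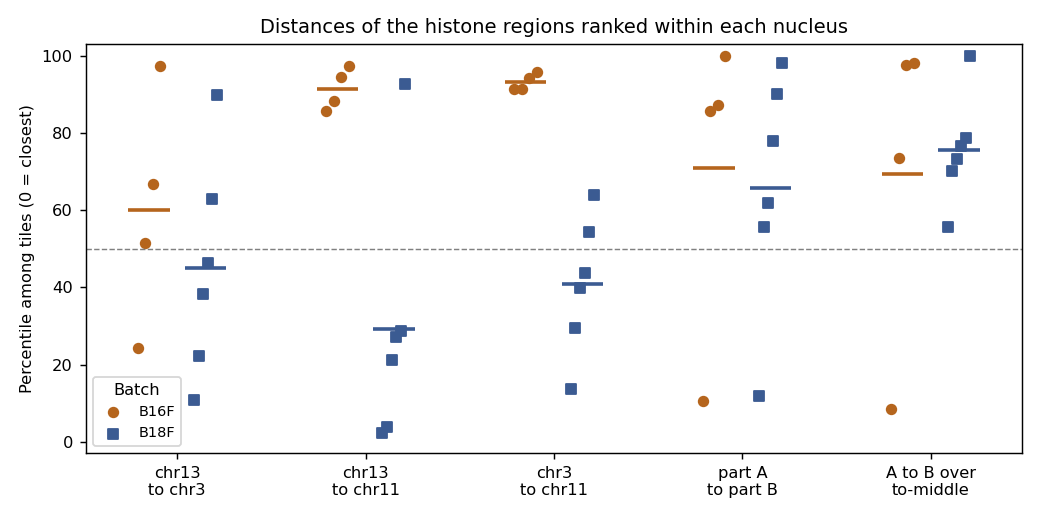
Percentile of each distance among all tiles or tile pairs of the same nucleus, where 0 is the closest and the dashed line marks 50. Each point is 1 nucleus, orange circles are B16F, blue squares B18F and horizontal bars are batch means; the chr3 to chr11 points of the batches do not overlap (91.4 to 95.9 against 13.7 to 63.9).

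The 2 batches differed for the pairs that contain the chr11 region by more than the spread within batches, before adjustment. The chr13 to chr11 percentile was 91.4 ± 5.38 (SD, n = 4) in B16F and 29.3 ± 33.0 (SD, n = 6) in B18F, a difference of 62.1 points (exact permutation p = 0.0286 over 210 assignments, adjusted p = 0.744; 5.92% of pairs had p under 0.05). The groups overlap through Cell39, at 92.5. The chr3 to chr11 percentile was 93.2 ± 2.22 (SD, n = 4) against 40.8 ± 17.8 (SD, n = 6), a difference of 52.4 points (exact permutation p = 0.00476, the smallest 210 assignments can give; adjusted p = 0.791; 5.34% of pairs had p under 0.05). No B18F nucleus reached the lowest B16F nucleus in that pair. Because the distance counts scatter, a high percentile need not mean that the regions lay apart. In Cell20 the chr3 and chr11 means lay at 47.8% and 47.6% of the axis, yet the pair was at a percentile of 91.4. With the difference of mean positions, this pair's mean minus 50 over the 10 nuclei was 6.82 points in place of 11.8 (exact sign-flip permutation p = 0.535). The chr13 to chr3 percentile was 59.9 ± 30.5 (SD, n = 4) against 45.1 ± 28.5 (SD, n = 6), with a difference of 14.9 points (exact permutation p = 0.433, adjusted p = 0.926; 5.68% of pairs had p under 0.05). The axis spans of the batches, given above, overlap but reach further in B16F, and their part in the differences was not tested. None of the differences passes the adjustment over all pairs.

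Where the regions lay between the ends and the middle of the axis was measured as the mean distance of their windows from the midpoint of the axis, ranked among the tiles of their chromosome. The chr13 region averaged a percentile of 38.8 ± 31.1 (SD, n = 10), from 1.96 in Cell25 to 100 in Cell20, where no tile of chr13 lay farther out (exact sign-flip permutation p = 0.283, adjusted p = 0.864). The chr3 region averaged 51.8 ± 27.7 (SD, n = 10; p = 0.840 by the same exact test, adjusted p = 0.981), and the chr11 region 55.1 ± 33.0 (SD, n = 10; exact p = 0.631, adjusted p = 0.950). Of all 326 tiles and regions of the 3 chromosomes, 7.06% had p under 0.05. With the median position of the nucleus as the centre, the chr3 mean minus 50 was 21.5 points (exact sign-flip permutation p = 0.00781), against 1.81 points with the midpoint. This is 1 of 317 alternative values, and no background or adjusted p is given for that centre. Between batches, the chr13 percentile was 64.2 ± 25.8 (SD, n = 4) against 21.9 ± 22 (SD, n = 6; exact permutation p = 0.0286, adjusted p = 0.716). For chr11 it was 85.5 ± 12.8 (SD, n = 4) against 34.9 ± 25.2 (SD, n = 6; exact permutation p = 0.0238, adjusted p = 0.706). In this batch comparison 6.13% of tiles had p under 0.05. The chr11 measures use the same windows as the chr11 distances and are not separate evidence.

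Each cluster was also described by its own spread, the mean distance between pairs of its windows. It ran from 0.282 axis units in Cell25 to 0.935 in Cell17 for chr13, from 0.308 in Cell26 to 1.12 in Cell17 for chr3, and from 0.0554 in Cell39 to 1.28 in Cell17 for chr11. The percentiles averaged 42.2 ± 23, 62.4 ± 23.6 and 46.9 ± 33.8 (SD, n = 10 each) for chr13, chr3 and chr11. The chr3 value was above 50 in 8 of 10 nuclei (exact sign-flip permutation p = 0.135, adjusted p = 0.691), and without Cell26 its mean minus 50 was 16.8 points (p = 0.0469 by the same exact test). Cell26 had the lowest chr3 percentile, and leaving out each nucleus gave p from 0.0469 to 0.262 by that test. For chr13 and chr11 the exact p was 0.312 and 0.781, and 7.06% of the 326 tiles and regions had p under 0.05. The chr11 spread was 76.7 ± 21.4 (SD, n = 4) in B16F and 27.1 ± 24.6 (SD, n = 6) in B18F (exact permutation p = 0.0190, adjusted p = 0.920), where 4.6% of tiles had p under 0.05.

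In 9 of 10 nuclei, window pairs lay farther apart on average between the 2 chr13 parts than between either part and the middle. The middle is the stretch of Vmn1r genes between the parts. This distance also counts scatter within each stretch. In mean position, given below, the middle lay between the parts in 5 of 10 nuclei. The distance from part A to part B was 1.41, 1.07, 0.921 and 0.503 axis units in Cell17, Cell18, Cell19 and Cell20. It was 0.380, 0.394, 0.507, 0.603, 0.592 and 0.997 in Cell25, Cell26, Cell27, Cell28, Cell38 and Cell39. Its mean was 0.738 ± 0.344 (SD, n = 10), against 0.610 ± 0.253 from part A to the middle and 0.645 ± 0.224 from the middle to part B.

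Divided by the mean of the distances to the middle, the distance between the parts was 1.43 in Cell17, 1.22 in Cell18, 1.09 in Cell19, 0.801 in Cell20, 1.18 in Cell25, 1.13 in Cell26, 1.05 in Cell27, 1.28 in Cell28, 1.09 in Cell38 and 1.23 in Cell39. Cell20 alone was under 1. This ratio was taken within each file and averaged over the files that gave all of these distances. The distances given above were averaged over every file with a value, so those to the middle can rest on more files. The mean ratio was 1.15 ± 0.165 (SD, n = 10), while the median chr13 tile with the same layout had 1.03 ± 0.0625 (SD, n = 10). The tile median was itself over 1 in 7 of 10 nuclei, so the excess of the histone region over its own chromosome is smaller than the ratio alone.

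Ranked among chr13 tiles of that layout, the ratio averaged 73.1 ± 26.8 (SD, n = 10), above 50 in 9 of 10 nuclei, with a mean minus 50 of 23.1 points (exact sign-flip permutation p = 0.0254). The adjusted p was 0.294, so the ratio did not pass over all layouts; 12.8% of the 47 layouts tested had p under 0.05, of which 2 were above 50. Without Cell17, Cell18 or Cell28 in turn, the mean minus 50 was 20.4, 20.4 and 20.2 points (exact p = 0.0508 each), and without Cell20 it was 30.3 points (exact p = 0.00391). File 1 alone gave 19.5 points (exact p = 0.0820, n = 9 nuclei), and file 0 alone 32.4 points over 4 nuclei, where the smallest exact p is 0.125.

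The distance between the parts itself, ranked in the same way, was at 100 in Cell17, 87.2 in Cell18, 85.7 in Cell19, 10.6 in Cell20, 11.8 in Cell25, 61.9 in Cell26, 90.0 in Cell27, 98.0 in Cell28, 55.6 in Cell38 and 77.8 in Cell39. In Cell17 no tile had a wider gap. The mean was 67.9 ± 33.1 (SD, n = 10), above 50 in 8 of 10 nuclei (exact sign-flip permutation p = 0.111, adjusted p = 0.459; 10.6% of 47 layouts had p under 0.05). Without Cell20 or without Cell25 the mean minus 50 was 24.2 and 24.1 points in place of 17.9 (exact p = 0.0352 each). Those nuclei had the lowest percentiles, and leaving out each nucleus gave exact sign-flip permutation p from 0.0352 to 0.207. Relative to the median tile, the gap was 1.13 ± 0.308 (SD, n = 10).

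The mean position of the middle lay between those of parts A and B in 5 of 10 nuclei, namely Cell17, Cell18, Cell20, Cell38 and Cell39. The parts were on opposite sides of the axis midpoint in Cell18, Cell19, Cell28 and Cell39, and their order was not the same. In Cell28 part A averaged 38.0% and part B 70.2% of the axis, whereas in Cell39 part A averaged 65.3% and part B 30.8%. Part B rested on few windows, 4 to 20 per nucleus and 105 in all, so 7 of the 20 files had under 3 of them and gave no value.

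**Figure D3:**
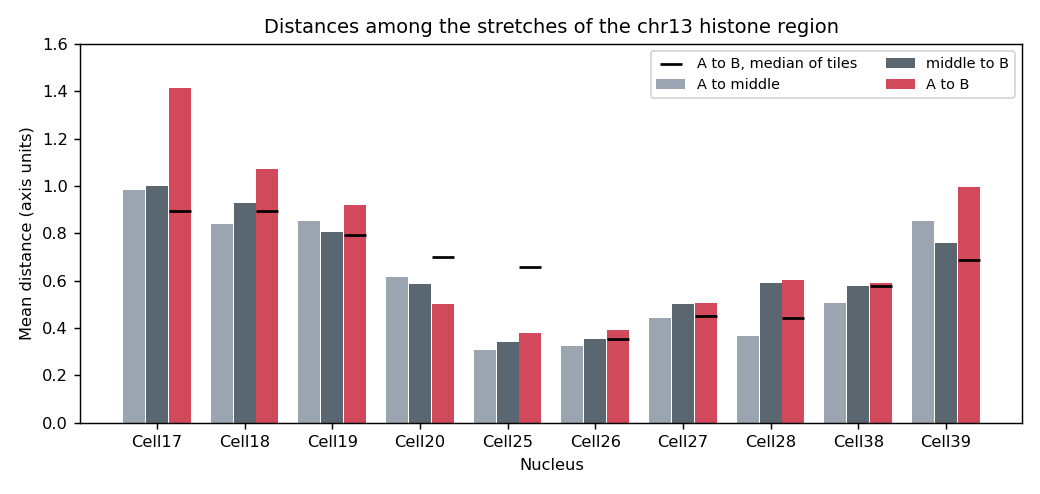
Mean distance, in axis units, from part A to the middle (light grey), from the middle to part B (dark grey) and from part A to part B (red) in each nucleus. Black marks give the median part-to-part distance of chr13 tiles with the same layout; the red bar is the tallest of the 3 in every nucleus but Cell20 (0.503).

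The files of a nucleus located the clusters unevenly. In Cell38, file 0 located none of the 220 chr13 windows, although no other chr13 tile was empty there and the median tile had 15; file 1 located 51. In Cell18, file 0 located no window of part A and 30 of the whole chr13 region. Windows listed in both files of a nucleus numbered 78 on chr13, 46 on chr3 and 128 on chr11, and their positions were identical (within 1e-06 axis units) in 26, 23 and 60 of these. What file 0 and file 1 stand for is not given in the sources used here.

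As whole regions, the clusters had located shares that did not differ detectably from those of other tiles when all windows were used. Averaged over files, the located share of chr13 windows ran from 11.6% in Cell38 to 45.7% in Cell25, that of chr3 from 6.0% in Cell39 to 31.5% in Cell17, and that of chr11 from 5.5% in Cell39 to 61.0% in Cell28. Their percentiles averaged 47.1 ± 25, 56.4 ± 18.5 and 51.8 ± 23.7 (SD, n = 10 each; exact sign-flip permutation p = 0.723, 0.307 and 0.816, adjusted p = 0.878, 0.592 and 0.930). Of the 326 tiles and regions, 18.7% had p under 0.05. Cell38 was the lowest for chr13, at a percentile of 1.96. With windows listed in both files left out, the chr13 mean minus 50 turned from -2.94 to 21.4 points, above 50 in 9 of 10 nuclei (exact sign-flip permutation p = 0.0410). With histone spans only, the chr11 value turned from 1.84 to -20.7 points (exact p = 0.0117). The chr11 span covers the same 3 windows as the histone windows compared below, so it is not separate evidence.

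Within the chr11 region, the windows that hold a histone gene had a lower located share than the other windows in all 10 nuclei, a difference that missed the threshold after adjustment. This comparison was chosen after values had been seen. On chr11, the 3 histone windows were located in 0 of 2 files in Cell17, Cell19, Cell20, Cell26, Cell38 and Cell39, so that their share was 0.0% there; it was 16.7% in Cell18, Cell25 and Cell28 and 33.3% in Cell27. The other 97 windows were located at 28.9% in Cell17, 19.1% in Cell18, 18% in Cell19, 11.3% in Cell20, 42.8% in Cell25, 17.5% in Cell26, 39.7% in Cell27, 62.4% in Cell28, 32.5% in Cell38 and 5.67% in Cell39. The means were 8.33% ± 11.8 and 27.8% ± 17.1 (SD, n = 10), a difference of -19.5 ± 13.8 percentage points (exact sign-flip permutation p = 0.00195, the smallest 10 nuclei can give; adjusted p = 0.0738). None of the 117 chr11 tiles had so low a mean difference at the same offset. The background is high, with 20.4% of the 378 tiles and stretches at p under 0.05, and the adjusted p misses 0.05. That adjusted p is the smallest among the 378 and is shared by other tiles or stretches. With windows listed in both files left out, the difference was -6.25 points (exact p = 0.107).

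On chr3, the 4 histone windows averaged 12.5% ± 11.8 and the other 96 windows 21.3% ± 7.20 (SD, n = 10), a difference of -8.80 ± 9.54 points, lower in 8 of 10 nuclei (exact sign-flip permutation p = 0.0234, adjusted p = 0.145). The difference was near 0 in file 0 alone (-0.312 points, exact p = 0.988) and -17.3 points in file 1 alone (exact p = 0.0312). Of the 155 chr3 tiles, 20 had as low a mean difference. In part B of chr13 the difference was -8.49 ± 12.6 points, lower in 7 of 10 nuclei (exact p = 0.0684, adjusted p = 0.280; without Cell25 -10.4 points, exact p = 0.0312; without Cell38 -10.2 points, exact p = 0.0430). In part A it was -2.37 ± 7.98 points, lower in 8 of 10 (exact p = 0.387, adjusted p = 0.647). In part A the histone share was the higher in Cell17 (45.5% against 27.9%) and Cell25 (54.5% against 51.5%), and without Cell17 the difference was -4.58 points (exact p = 0.0156). Cell17 ran against the mean there, as did Cell25 and Cell38 in part B. Leaving out each nucleus gave exact sign-flip permutation p from 0.0156 to 0.668 in part A and from 0.0312 to 0.137 in part B.

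Set against windows of other protein-coding genes in the same stretch, the histone windows differed by -18.3 ± 15.9 points on chr11 (SD, n = 10; 40 other windows) and by -10.6 ± 9.67 points on chr3 (SD, n = 10; 27 other windows), and were higher in 1 of 10 nuclei in each. In part A the difference was 0.795 ± 8.77 points over 8 other windows (SD, n = 10), and in part B -2.14 ± 28.4 points over only 2 other windows (SD, n = 10). These differences were chosen after values had been seen and were not run on other tiles, so they are given with no test. Many histone genes, such as the H4 genes, are near-identical copies of others in their class. RefSeq names other H4 genes among the synonyms of an H4 gene, but no other listed histone gene for the chr11 genes. How the authors treated reads that match several copies is not given in the sources used here, and its part in the located shares was not tested.

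**Figure D4:**
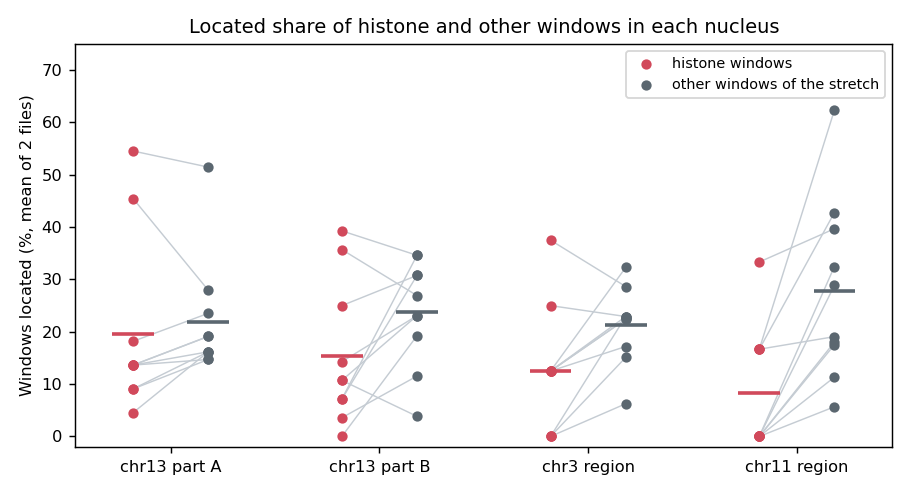
Percent of windows located, averaged over the 2 files of a nucleus, for windows with a histone gene (red) and the other windows of the same stretch (grey); lines join the 2 values of a nucleus and horizontal bars are means over 10 nuclei. On chr11 every line goes up from red to grey (means 8.33% and 27.8%).

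Single genes were seen in few nuclei. A histone window was located in a median of 3 of 20 files on chr13, 2.5 on chr3 and 2 on chr11, against 4, 4 and 5 files for the other windows. In part A, the first gene H2bc13 was located in 2 nuclei and the last gene H2bc11 in 3; both encode H2B. The part A window of the linker histone gene H1f5 was located in 7 nuclei and 8 files, and 7 nuclei was the highest count of any histone gene here, reached by 5 genes of part A. In part B, the first gene H4c8 was located in 3 nuclei and the last gene H1f1 in 2. The other H1 genes of part B were seen as rarely: H1f3 and H1f4 in 1 nucleus each, H1f2 in 2 and H1f6, the testis-specific linker histone, in 3.

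On chr3, the windows of the H2A genes H2ac21 and H2ac20, the H2B gene H2bc21 and the H3 gene H3c15 were located in 2 nuclei each. Those of the H2A genes H2ac19 and H2ac18, the H3 genes H3c14 and H3c13, the H4 gene H4c14 and the H2B gene H2bc18 were located in 3 each. Several of these genes share a window, so their counts are not independent. On chr11, the H2B gene H2bu2, the H2B pseudogene H2bu1-ps and the H2A gene H2aw were located in 2 nuclei each, and H3f4, a testis H3 gene, in 1. At such counts the position of a single histone gene cannot be compared between nuclei.

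**Figure D5:**
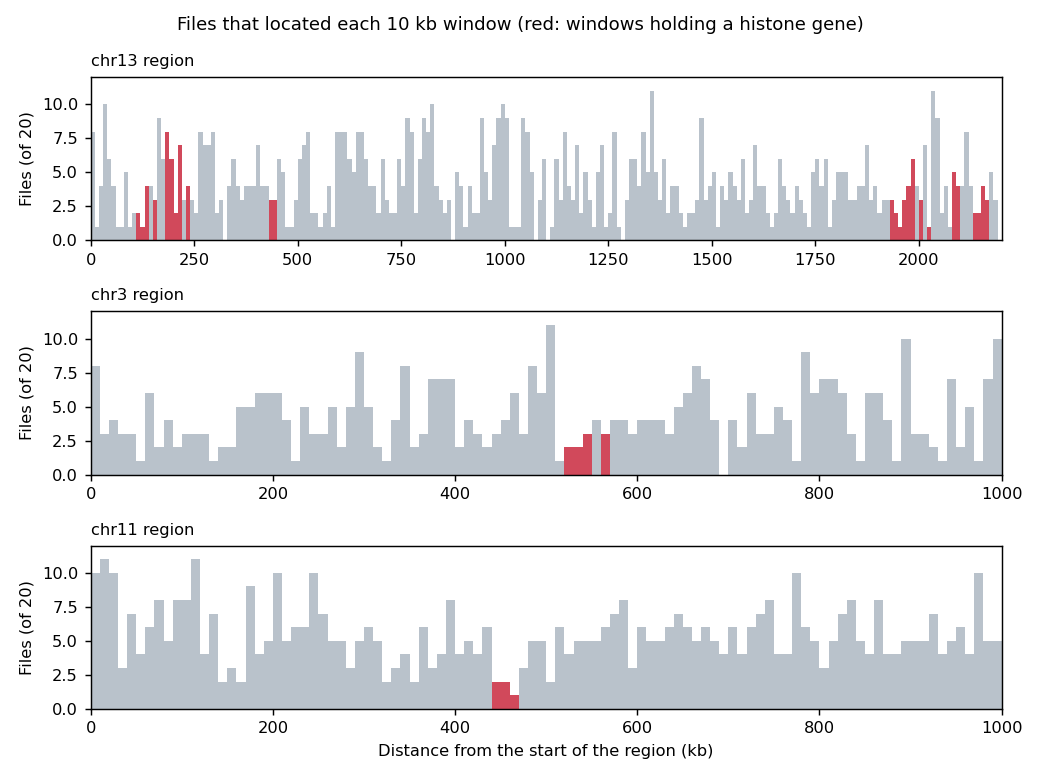
Number of files, of 20, that located each 10 kb window of the chr13, chr3 and chr11 regions, against the distance from the start of the region in kb. Red bars are windows that hold the midpoint of a histone gene. The red bars of chr11 reach 2 files at most, while the other chr11 windows have a median of 5.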

How the data were processed

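Per the submitters' processing notes, reads were handled with Trim Galore 0.6.4, Bowtie2 2.3.5 and Picard, and mm10 is the build named; the sources used here do not give the steps from reads to window positions. The authors deposited, per the file headers, 10 kb windows with a position on the cutting axis, a unit other than a count and with no name. Gene positions came from RefSeq GRCm38.p6, the assembly that mm10 is built on. The chr13 region was split at the longest interval between histone genes (chr13:22043659-23531043), at window borders. A region needed 3 located windows in a file, and a tile or pair needed values in 8 nuclei to be tested. Regions were ranked among every tile of the same layout, none drawn at random. Midpoint distance, spread and located share were adjusted over the tiles of the 3 chromosomes together. The scripts were tested on shuffled positions with a planted closeness of the chr13 and chr3 regions. Nothing was planted for the other results. The members, lists and tests were chosen with earlier results of these data known; the histone-window comparison was added after values were seen. Genes were named by a rule: first and last histone gene of each chr13 part, the H1 genes, and all histone genes of chr3 and chr11. RefSeq lists 1 part A gene as H4bc24 with an H2B synonym, and it was counted as H2B. Alternatives were 5 windows, each file alone, shared windows left out, shifted tiles, histone spans only, another centre, mean positions, pairs across files, each batch alone and each nucleus left out; tiles every 100 kb and pooled files were added later. The controls were left out because they have no positions. Python 3.11.15, numpy 2.4.6, pandas 2.3.3 and scipy 1.17.1 were used.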

Additional observations from a re-analysis of the deposited data

Results flagged for a closer look

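Differences between batches passed p under 0.05 in exact permutation tests over 210 assignments, before adjustment, for 5 of 14 results. In percentile points, B16F minus B18F was 62.1 for the chr13 to chr11 distance, 52.4 for the chr3 to chr11 distance, 42.3 for the chr13 distance from the midpoint, 50.6 for the chr11 distance from the midpoint and 49.6 for the chr11 spread. Of these, 4 use the chr11 windows, and no adjusted p was under 0.706.

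Among all nuclei, Cell20 stood apart in the ratio of the gap between the chr13 parts to the distances to the middle. It was at a percentile of 8.51, and the next lowest nucleus, Cell39, was at 55.6. Cell17 stood apart among all nuclei for part A, where its histone windows were located 17.5 percentage points more often than the other windows. Such a gap arises by chance in about 1 of 20 groups. More than 1 result was searched for such gaps, so flags like these can arise by chance.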

How the results depend on the processing

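Of 317 alternative values, 252 kept their direction and their side of p = 0.05, 43 changed direction, 14 lost p under 0.05 and 8 gained it in the same direction. Of the 43, 2 had p under 0.05: chr13 located share without shared windows (21.4, exact p = 0.0410) and chr11 located share over histone spans only (-20.7, exact p = 0.0117). Values are mean percentile minus 50, or percentage points for histone windows, and the cause of a change was not tested. With 4 or 6 nuclei the smallest exact p is 0.125 or 0.0312.

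With file 1 alone, chr13 to chr3 gave -8.62, chr13 spread 2.35, chr13, chr3 and chr11 located share 4.41, -1.55 and -12.5, chr3 midpoint distance -7.59 and the relative gap 19.5. File 0 alone gave 32.4 for the relative gap and -0.312 for chr3 histone windows. With shared windows left out, chr13 to chr3 gave -3.01, the relative gap 21.2, chr13 and chr11 located share 21.4 and -0.73, chr3 midpoint distance -2.40, and histone windows -5.85 in part B, -4.01 on chr3 and -6.25 on chr11. At least 5 windows gave 31.0 for the relative gap. The median as centre gave 21.5 for chr3. Histone spans only gave, for chr13, midpoint distance 3.79 and spread 9.63, for chr3 -3.73 and -10.4 (2 nuclei), and for located share -14.5 on chr3 and -20.7 on chr11.

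B18F alone gave -4.94, -20.7 and -9.22 for chr13 to chr3, chr13 to chr11 and chr3 to chr11, -11.0 and -15.1 for chr3 and chr11 midpoint distance, and -7.20 for chr3 histone windows. B16F alone gave 19.4 for the relative gap, 14.2 and 1.96 for chr13 midpoint distance and spread, 26.7 and -10.9 for chr11 spread and located share, and 0.60, -11.2 and -15.2 for histone windows in part A, on chr3 and on chr11.

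Leaving out each nucleus gave -4.15 to 5.46 for chr13 to chr3, -0.68 to 9.86 for chr13 to chr11, 14.3 to 24.2 for the gap, 20.2 to 30.3 for the relative gap, -7.95 to 2.07 and -2.18 to 5.56 for chr13 and chr11 located share, -2.04 to 6.92 for chr3 midpoint distance, 8.71 to 16.8 for chr3 spread, -8.69 to 1.95 for chr11 spread, -18.0 to -7.08 and 0.62 to 10.4 for chr13 and chr11 midpoint distance, -11.2 to -3.38 for chr13 spread, 3.37 to 9.46 for chr3 located share, and -4.58 to -1.34 and -10.4 to -6.38 for histone windows in parts A and B.

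No pairing of nuclei between batches was possible because the 10 nuclei are single cells with no numbers shared between batches. Histone windows and other windows were compared within each nucleus. The few located windows, above all the 105 of part B, limit the precision.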
